A study of Danio rerio with 18 samples.

Results

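The conjugation enzymes of drug and hormone metabolism were described in zebrafish larval livers of 2 genotypes under 2 treatments. They comprise the UDP-glucuronosyltransferases (UGT), the glutathione S-transferases (GST), the sulfotransferases (SULT) and the carboxylesterases (CES). Genes were chosen by symbol: those beginning, in any letter case, with ugt1, ugt2, ugt5, ugt8, gsta, gstm, gsto, gstp, gstr, gstt, gstz or gstk, and with sult or ces before a digit. Of 32105 gene IDs in the count files, 67 carried such a symbol. A minimum of 10 counts over the 18 libraries left 63 of them, 26 UGT, 16 GST, 18 SULT and 3 CES genes. The 4 below the minimum were gstk4 and ugt5g2, with 6 and 4 counts, and sult1st7 and ugt5c2, which were listed at 0.

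Total RNA, with ribosomal RNA removed, was read from livers taken at 120 h after fertilization. They were pooled by genotype and treatment batch once each carcass had been genotyped, and each library is listed with 15 to 20 livers per pool. All larvae came from crosses among heterozygous carriers of uhrf1-hi272, an insertion allele of the gene for the DNA methylation factor Uhrf1, in the strain ABNYU, and carried Tg(fabp10a:CAAX-EGFP), in which a hepatocyte promoter drives a membrane-bound fluorescent protein. Larvae of all groups were in 0.5% DMSO from 48 h on, and the treated ones also received palbociclib, an inhibitor of the cell cycle kinases CDK4 and CDK6, at 20 µM. The 4 groups were uhrf1-hi272-/- mutants in palbociclib (n = 5 libraries), such mutants in DMSO (n = 5), control siblings, called WT in the design text, in palbociclib (n = 4, replicates 1, 2, 4 and 5) and such siblings in DMSO (n = 4). Whether replicates within a group derive from separate clutches is not stated, so p-values reflect only the spread among these pools, which may be technical.

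Conjugation makes lipid-soluble compounds easier to excrete. UGT enzymes, in the endoplasmic reticulum, transfer glucuronic acid from UDP-glucuronic acid. GST enzymes join glutathione to reactive electrophiles, and SULT enzymes transfer sulfate from its activated donor PAPS. Carboxylesterases hydrolyse esters and amides, a step that often exposes the group that is then conjugated. In mammals the liver is a main site of all 4 reactions, and the products leave through transport proteins into bile or blood.

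Total counts per library were 2863560 to 4056715 and 2467926 to 3618445 for mutants in palbociclib and in DMSO, and 3400255 to 4764175 and 4141600 to 5199301 for controls in palbociclib and in DMSO. The chosen genes took 0.264% to 0.864% of the counts of a library. uhrf1 was not called between the genotypes, with 46.5 ± 7.55 CPM (SD, n = 5) in mutant and 37.8 ± 7.50 CPM (n = 4) in control livers in DMSO. Counts per gene do not show where in the transcript the reads lie, so this level does not check the genotype labels. All 23 hepatocyte marker gene IDs were detected, and they took 2.78% to 4.36% of the counts in mutants in palbociclib, 2.097% to 3.18% in mutants in DMSO, 2.26% to 4.30% in controls in palbociclib and 4.21% to 5.37% in controls in DMSO. All 21 muscle marker gene IDs were detected too, at 5.25% to 6.24%, 4.47% to 6.40%, 4.22% to 6.35% and 2.85% to 4.89% in the same groups. Every marker gene ID of the other 7 lists was detected, and no list took more than 0.947% of a library. Leukocyte markers (17 gene IDs) took 0.0123% to 0.0195%, 0.0171% to 0.0271%, 0.00604% to 0.0102% and 0.00487% to 0.00732% of the counts in those groups, and biliary markers (8 gene IDs) 0.152% to 0.202%, 0.204% to 0.252%, 0.111% to 0.141% and 0.121% to 0.139%. The part of these cell types in the results was not tested, and in such bulk samples fewer hepatocytes and less RNA per hepatocyte cannot be told apart. Control replicates 3 and 4 in DMSO stood apart from replicates 1 and 2 of their group, with high levels of many chosen genes, and they held the 2 lowest muscle shares, 3.04% and 2.85%. Counts of calls that involve control livers in DMSO, and the calls of the members named, are also given without these 2 libraries, a choice made after their levels were seen.

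The 63 genes together had the lowest mean level in mutant livers in DMSO and the highest in control livers in DMSO, with the means of the palbociclib groups between them. Levels are given as CPM, the counts of a gene scaled to a common TMM-adjusted library size. They are not divided by transcript length, so they compare libraries for a gene and not genes with each other. The summed level was 3375 ± 364 CPM in mutants in palbociclib, 2576 ± 246 CPM in mutants in DMSO, 5865 ± 1537 CPM in controls in palbociclib and 9349 ± 2143 CPM in controls in DMSO (SD, n = 5, 5, 4 and 4). The mutant and control ranges did not overlap in either treatment. Carboxylesterase reads made up much of that sum, with 1611 ± 277, 1029 ± 152, 3765 ± 1295 and 6317 ± 1191 CPM in the same groups.

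The UGT sum was 594 ± 65.5 CPM in mutants in palbociclib, 531 ± 67.2 CPM in mutants in DMSO, 763 ± 140 CPM in controls in palbociclib and 1208 ± 467 CPM in controls in DMSO. The GST sum was 825 ± 49.4, 715 ± 30.6, 977 ± 88.1 and 1372 ± 452 CPM, and the SULT sum 345.5 ± 21.2, 301 ± 18.7, 361 ± 28.5 and 453 ± 86.8 CPM. For each of the 4 superfamilies, every control library in DMSO lay above every mutant library in DMSO. In palbociclib the mutant and control ranges of the UGT, GST and SULT sums overlapped, the GST sums reaching 912 CPM in mutants and starting at 910.2 CPM in controls. By unadjusted library size the SULT ranges in DMSO overlapped too, at 299 to 339 CPM in mutants and 336 to 405 CPM in controls. The UGT, GST and CES ranges in DMSO stayed apart by that measure.

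**Figure D1:**
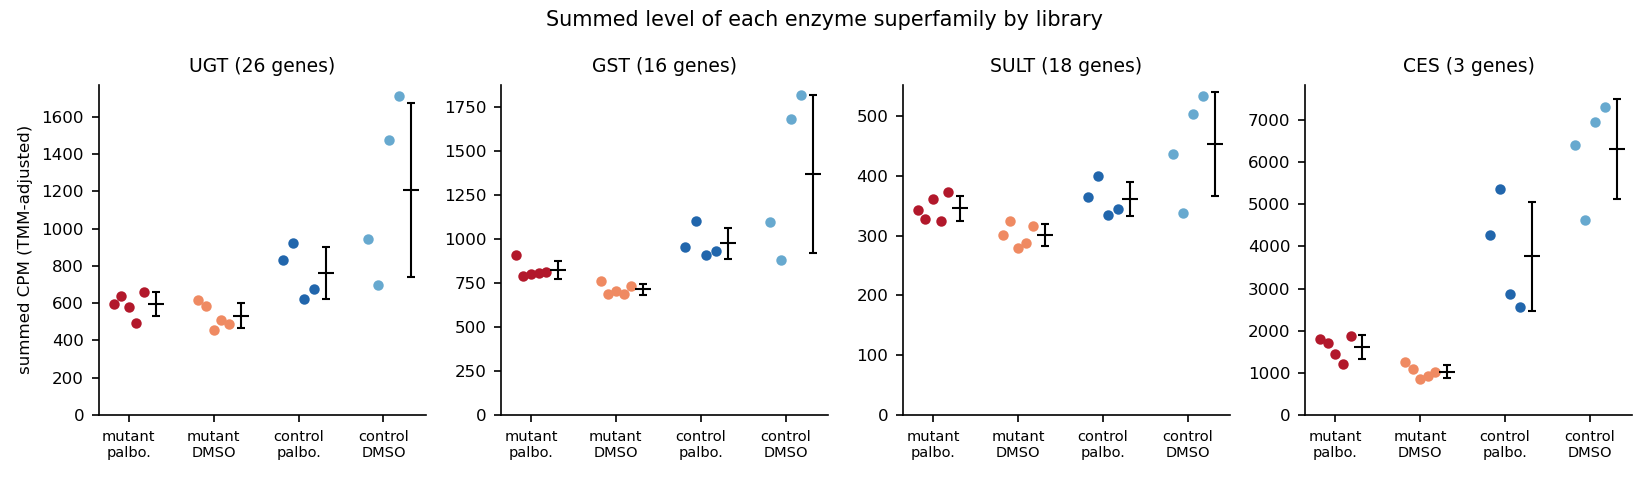
Summed TMM-adjusted CPM of the UGT, GST, SULT and CES genes (vertical axes, starting at 0), one point per library, in mutants in palbociclib, mutants in DMSO, controls in palbociclib and controls in DMSO; the bar and whiskers are the mean and SD. Mutant libraries in DMSO lie below all control libraries in DMSO in each panel, and 2 control libraries in DMSO lie far above the other 2 for UGT and GST.

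Of the 63 genes, 51 passed the filter on low counts and were tested, 19 UGT, 15 GST, 14 SULT and 3 CES genes. Genes were called at an adjusted p of 0.05 or less by the quasi-likelihood test of edgeR, with p-values adjusted by Benjamini-Hochberg over 17048 genes. Between mutant and control livers in DMSO, 25 of the 51 were called lower and 0 higher, against 17.1% of all tested genes called in either direction and, by direction, 10.4% lower and 6.72% higher. The 25 were 9 UGT, 8 GST, 5 SULT and all 3 CES genes, and for 19 of them all mutant libraries lay below all control libraries, 37.3% of the 51 members, against 8.24% of all tested genes. The median log2 fold change was -0.91 over the 51 genes and 0.06 over all tested genes. Of the 23 hepatocyte markers, 18 were called lower and 0 higher, with a median of -1.62, so the fall was not particular to the chosen genes. Without control replicates 3 and 4, 15 of 52 tested members were called, all lower, with a median of -0.50, against 8% of all genes in that fit. The 10 members no longer called were ugt2b1, ugt5a1, ugt5b1, ugt5b3, gstp1.2, gstt1a, gstt1b, sult1st1, sult1st3 and sult3st3. The direction depends on what the libraries are scaled to: scaled to the hepatocyte markers, 6 members were called lower and 19 higher, and the median of all genes moved to 1.38. Of all tested genes, 175 were called lower and 14056 higher with that scaling. The members' median minus that of all genes was -0.92 with this scaling and -0.97 with TMM scaling. A change of scaling moves all genes by nearly the same amount, so this difference stays nearly fixed and does not test the direction. Under hepatocyte scaling 29 of the 51 fold changes turned from negative to positive, 12 of them of genes called lower with TMM scaling, among these gstr, GSTM3_042533, UGT1A1, ugt2a4 and gstp1.2. Of the 29, 10 were called higher with that scaling, and sult1st1 was called lower with TMM scaling and higher with hepatocyte scaling. With muscle share as a covariate, 7 members were called lower and 1, UGT8, higher, against 519 and 634 of all tested genes. Scaled to library size alone, 22 members were called lower and 2 higher, against 1027 and 4681 of all tested genes, with the median of all genes at 0.42.

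Between mutant and control livers in palbociclib, 2 of the 51 members were called lower, GSTZ1 and ces2b, and 0 higher, against 1.05% of all genes called (0.634% higher and 0.416% lower). Between palbociclib and DMSO in mutant livers, edgeR's quasi-likelihood test called 0 of 51, against 0.54% of all genes (0.0411% higher and 0.499% lower). Of the members, 9 had an unadjusted p under 0.05, and DESeq2 called 1, ces3. Of all 17048 tested genes, 1502 had such a p, and DESeq2 called 31 higher and 133 lower. Between palbociclib and DMSO in control livers, 10 of 51 were called lower and 0 higher, against 5.71% of all genes (1.38% higher and 4.33% lower), 3 UGT, 4 GST, 2 SULT and 1 CES gene. The test of interaction asks whether the difference between mutant and control livers differs between palbociclib and DMSO. It called 6 of 51, all with a less negative mutant effect in palbociclib, against 1.99% of all genes (1.74% higher and 0.252% lower). The comparisons that include control livers in DMSO share those libraries and are not independent of each other. Altogether 26 of the 51 tested members were called in none of the 5 comparisons.

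All 3 carboxylesterase genes fell in mutant livers in DMSO, ces3 by more than any other of the 51 tested members. ces3 (ENSDARG00000041595) was at 26.5, 22.1, 21.6, 18.6 and 19.6 CPM in mutants in DMSO and at 234, 166, 248 and 252 CPM in controls in DMSO. Under palbociclib it stood at 44.2, 43.5, 41.0, 38.1 and 58.0 CPM in mutants and at 63.6, 78.6, 50.8 and 27.3 CPM in controls. Every control library in DMSO lay above all others, and the mutant and control ranges in palbociclib overlapped. In DMSO ces3 was 10.3-fold lower in mutants (log2 fold change -3.37, SE 0.24, edgeR adjusted p = 2.66e-08), while in palbociclib the log2 fold change was -0.29 (SE 0.23, adjusted p = 0.806). The change of ces3 under palbociclib against DMSO was 1.05 on the log2 scale (SE 0.23, adjusted p = 0.0515, not called) in mutant livers and -2.03 (SE 0.23, adjusted p = 0.000193) in control livers. The interaction was 3.08 on the log2 scale (SE 0.33, edgeR adjusted p = 7.94e-05). Without control replicates 3 and 4 in DMSO, ces3 was called in the same directions, at -3.23 for mutant against control in DMSO, -1.86 for palbociclib in controls and 2.93 for the interaction. It was also called in those directions with muscle share as a covariate (-2.62, -1.40 and 2.55) and with scaling to hepatocyte markers (-2.04, -1.27 and 1.85).

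ces2a (ENSDARG00000041569), of a family whose human member CES2 hydrolyses many prodrugs, was the most highly counted of the chosen genes. Its level was 1011, 842, 644, 695 and 796 CPM in mutants in DMSO and 5451, 3955, 4878 and 5168 CPM in controls in DMSO, 6.10-fold lower in mutants (log2 fold change -2.61, SE 0.31, edgeR adjusted p = 2.5e-05). Libraries treated with palbociclib stood at 1286, 1400, 1143, 864 and 1408 CPM in mutants and 3171, 3972, 1757 and 1014 CPM in controls, where 1 control library fell within the mutant range (log2 fold change -1.02, SE 0.30, adjusted p = 0.165). Palbociclib against DMSO in controls gave a log2 fold change of -0.97 (SE 0.32, edgeR adjusted p = 0.0932, not called). Without replicate 5 of the controls in palbociclib, the genotype difference in palbociclib was called (-1.28, adjusted p = 0.0106). Without replicate 2 of that group, the palbociclib difference in controls (-1.29, edgeR adjusted p = 0.0229) and the interaction (1.91, adjusted p = 0.0182) were called.

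ces2b (ENSDARG00000101726), the other ces2 gene, was lower in mutants in both treatments. It was at 209, 230.4, 196, 202 and 209 CPM in mutants in DMSO and at 711, 499, 1823 and 1881 CPM in controls in DMSO (log2 fold change -2.55, SE 0.34, edgeR adjusted p = 7.21e-05). With palbociclib its level lay at 468, 275, 251, 316 and 417 CPM in mutants and at 1044, 1300, 1066 and 1516 CPM in controls (log2 fold change -1.83, SE 0.33, edgeR adjusted p = 0.0133). The control libraries in DMSO split into 2 low and 2 high values, and the controls in palbociclib lay between these pairs. Between palbociclib and DMSO in controls the log2 fold change was 0.00 (SE 0.35, adjusted p = 0.998). With muscle share as a covariate the DMSO genotype difference was -1.69 and no longer called, and without control replicates 3 and 4 it was -1.56 and still called. The counts of ces2a and ces2b also stood in different ratios: ces2a over ces2b was 2.75, 5.08, 4.55, 2.73 and 3.38 in mutants in palbociclib and 4.83, 3.66, 3.29, 3.44 and 3.82 in mutants in DMSO. It was 3.04, 3.06, 1.65 and 0.669 in controls in palbociclib and 7.67, 7.93, 2.68 and 2.75 in controls in DMSO, so it ranged more widely among control libraries than among mutant ones. How alike the 2 genes are in sequence was not measured. The sources used here do not describe how the counting treats reads shared by genes.

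**Figure D2:**
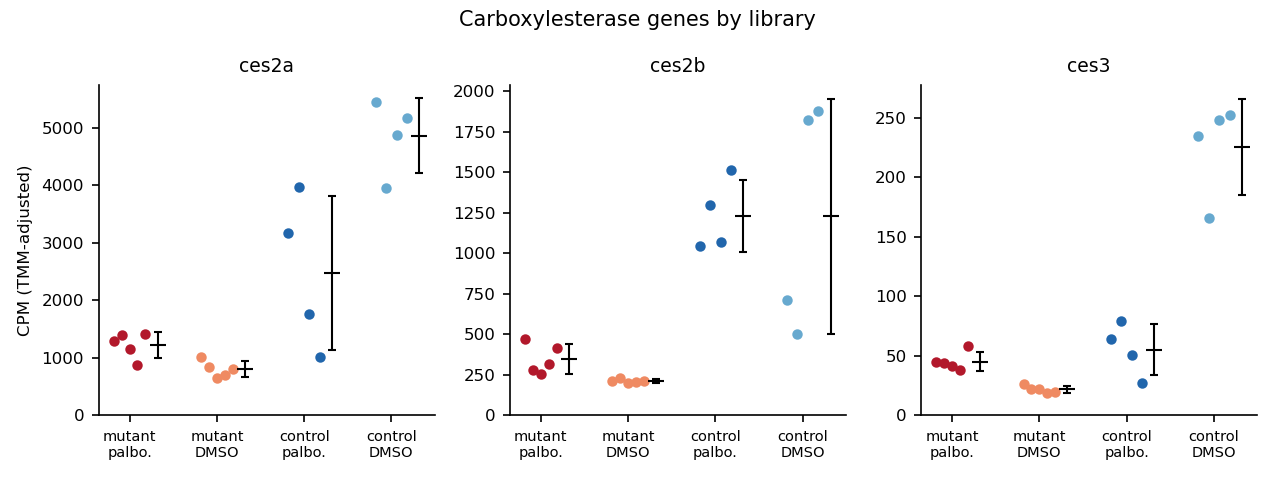
TMM-adjusted CPM of ces2a, ces2b and ces3 (vertical axes, starting at 0), one point per library, in mutants in palbociclib, mutants in DMSO, controls in palbociclib and controls in DMSO, with mean and SD. All mutant libraries in DMSO lie below all control libraries in DMSO for each gene, and ces2b alone of the 3 has 2 control libraries in DMSO below all control libraries in palbociclib.

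Of 19 tested UGT genes, 9 fell in mutant livers in DMSO and 10 were not called, with a median log2 fold change of -0.99. By family these were 1 of 4 tested UGT1 genes, 3 of 4 UGT2 genes and 5 of 10 UGT5 genes, UGT5 being a family known from fish. The single UGT8 gene, whose human counterpart transfers galactose to ceramide, was not called (log2 fold change -0.29, SE 0.26, adjusted p = 0.522). The muscle marker share was 5.52% ± 0.772 in mutants in DMSO and 3.59% ± 0.919 in controls in DMSO beside these differences. Of the UGT genes, 5 were called lower without control replicates 3 and 4 in DMSO, UGT1A1, ugt2a4, ugt2a7, ugt5b2 and ugt5b4. With muscle share as a covariate, of the UGT genes only ugt5b4 was called lower (-1.43) and UGT8 was called higher (0.70).

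UGT1A1, whose human counterpart conjugates bilirubin, had a share of the UGT sum of a library that averaged 35.7% to 40.9% by group. It was at 251, 239, 188, 209 and 199 CPM in mutants in DMSO and at 319, 259.8, 545 and 598 CPM in controls in DMSO, without overlap (log2 fold change -0.99, SE 0.20, edgeR adjusted p = 0.00265). In palbociclib it was at 225, 258, 232, 186 and 237 CPM in mutants and at 303, 305, 255 and 268 CPM in controls, and the ranges overlapped (log2 fold change -0.31, SE 0.20, adjusted p = 0.726). The 2 high control libraries in DMSO were replicates 3 and 4. Without them the DMSO difference was -0.44 and still called (edgeR adjusted p = 0.00711). On the RefSeq assembly GRCz12tu the ugt1a1 locus overlaps other ugt1a loci, whose symbols no gene ID in the count files carried. Whether their reads were counted under UGT1A1 was not tested.

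In the UGT2 family, whose mammalian members conjugate steroids and bile acids, ugt2a4 was the highest in counts. Its level was 82.9, 79.4, 60.1, 70.2 and 76.2 CPM in mutants in DMSO and 159, 110.2, 194 and 234 CPM in controls in DMSO (log2 fold change -1.24, SE 0.21, edgeR adjusted p = 0.0005). Under palbociclib it stood at 87.3, 114, 91.2, 58.0 and 112 CPM in mutants and 113, 138, 90.8 and 104 CPM in controls, which overlapped (log2 fold change -0.27, adjusted p = 0.813). ugt2a7 and ugt2b1 also fell in mutants in DMSO, by 1.25 and 1.16 on the log2 scale, and ugt2a5 was not called (0.07). ugt2b1 was in addition lower in palbociclib than in DMSO in controls, with 12.9 ± 3.79 CPM in palbociclib and 23.0 ± 6.83 CPM in DMSO (SD, n = 4 each, log2 fold change -0.82, edgeR adjusted p = 0.0377). Neither ugt2b1 difference was called without control replicates 3 and 4 in DMSO (-0.78 between genotypes and -0.41 between treatments).

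Among UGT5 genes the 4 tested ugt5b genes fell in mutants in DMSO. ugt5b4 was at 33.8, 32.6, 25.4, 26.3 and 26.2 CPM in mutants in DMSO and at 146, 90.6, 247 and 294 CPM in controls in DMSO, 6.72-fold lower in mutants (log2 fold change -2.75, SE 0.33, edgeR adjusted p = 3.01e-05). Libraries treated with palbociclib stood at 54.5, 42.4, 44.1, 32.2 and 57.7 CPM in mutants and at 101, 128, 60.4 and 59.7 CPM in controls, which did not overlap but missed the threshold (log2 fold change -0.91, SE 0.32, adjusted p = 0.306). Its interaction of 1.84 (SE 0.46, adjusted p = 0.0593) missed the threshold as well, and it passed without control replicate 2 in DMSO (2.08, adjusted p = 0.00721), without control replicate 2 in palbociclib (2.08, adjusted p = 0.0268) and by DESeq2 (1.82, adjusted p = 0.0033).

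ugt5b2 (ENSDARG00000101495) was called in the interaction. It was at 7.75, 10.6, 2.56, 7.62 and 14.5 CPM in mutants in palbociclib, 3.66, 5.53, 5.14, 4.71 and 4.24 CPM in mutants in DMSO, 12.7, 11.7, 6.24 and 6.48 CPM in controls in palbociclib and 13.6, 13.8, 23.9 and 35.3 CPM in controls in DMSO. The DMSO libraries of the genotypes did not overlap, and those in palbociclib did. Its genotype effect on the log2 scale was -2.20 in DMSO (SE 0.35, edgeR adjusted p = 1.6e-05) and -0.10 in palbociclib (SE 0.34, adjusted p = 0.979), with an interaction of 2.097 (SE 0.49, edgeR adjusted p = 0.0172). The interaction was not called without control replicate 4 in DMSO (1.76, adjusted p = 0.0562), without control replicate 4 in palbociclib (1.94, adjusted p = 0.0538) or without control replicates 3 and 4 in DMSO (1.45, adjusted p = 0.294). ugt5b1 and ugt5b3 fell by 2.34 and 1.05 in mutants in DMSO, and ugt5a1 by 1.22, and without control replicates 3 and 4 in DMSO none of these 3 was called (-1.70, -0.59 and -0.67). The 5 other tested UGT5 genes, ugt5a2, ugt5c3, ugt5d1, ugt5e1 and ugt5g1, had log2 fold changes of -1.04 to -0.16 and were not called. Palbociclib against DMSO in controls, ugt5b2 was called as well, and it was not called without replicate 3 or 4 of the controls in DMSO (-1.17 and -0.89) or replicate 4 or 5 of the controls in palbociclib (-1.06 and -1.09). Of the 58 members found by symbol on the RefSeq assembly GRCz12tu, 15 overlap the locus of another of the 67 genes with such a symbol. For gstk1 that gene is gstk4, which was below the count minimum. Among the 15 are ugt5b1 to ugt5b4, ugt5a1 and ugt5a2, and the ugt1b genes. Counts of the 15 are uncertain where reads were shared. The ugt1a1 and ugt2a4 loci overlap further ugt1a and ugt2a loci there, whose symbols no gene ID in the count files carried. Whether their reads were counted under UGT1A1 or ugt2a4 was not tested.

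Of 15 tested GST genes, 8 fell in mutant livers in DMSO and 7 were not called, with a median log2 fold change of -0.86. All 3 theta genes fell, along with the single rho, zeta and kappa genes tested, 1 of 3 mu genes and 1 of 2 pi genes. The 2 alpha genes, gsta.1 (-0.33) and gsta.2 (-0.13), were not called. Nor were the 2 omega genes, gsto1 (0.07) and gsto2 (0.24), of a class known for reduction of dehydroascorbate. The hepatocyte marker share was 2.57% ± 0.455 in mutants in DMSO and 4.95% ± 0.509 in controls in DMSO beside these differences. With scaling to these markers none of the 8 was called lower. Of the 8, 5 were called lower without control replicates 3 and 4 in DMSO, GSTZ1, GSTM3_042533, gstr, gstk1 and gstt2, so that of the theta genes 1 of 3 and of the pi genes none was called.

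gstr (ENSDARG00000042620), of the rho class of fishes, had the smallest adjusted p of the members between mutants and controls in DMSO. It was at 167, 159, 136, 149.5 and 148 CPM in mutants in palbociclib, 127, 112, 119.6, 107 and 123 CPM in mutants in DMSO, 182, 178, 174 and 173 CPM in controls in palbociclib and 239, 217, 336 and 359.7 CPM in controls in DMSO. No 2 of the 4 groups overlapped. The genotype difference was -1.29 in DMSO (SE 0.11, edgeR adjusted p = 8.75e-12) and -0.22 in palbociclib (SE 0.11, adjusted p = 0.52). Palbociclib against DMSO gave 0.37 in mutants (SE 0.10, adjusted p = 0.105) and -0.70 in controls (SE 0.12, edgeR adjusted p = 0.000212), and the interaction was 1.07 (SE 0.16, edgeR adjusted p = 4.03e-05). Without control replicates 3 and 4 in DMSO, the interaction was 0.75 and still called, and the difference in controls was -0.37 and no longer called.

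GSTZ1, maleylacetoacetate isomerase of tyrosine breakdown, was lower in mutants in both treatments. It was at 22.8, 11.9, 13.0, 18.1 and 27.7 CPM in mutants in DMSO and at 51.7, 42.5, 53.0 and 65.7 CPM in controls in DMSO (log2 fold change -1.52, SE 0.21, edgeR adjusted p = 1.01e-06). With palbociclib its level lay at 19.4, 17.01, 14.0, 12.6 and 18.1 CPM in mutants and at 35.7, 39.8, 31.4 and 19.4 CPM in controls (log2 fold change -0.95, SE 0.21, edgeR adjusted p = 0.0133). The palbociclib ranges nearly met, at the lowest control and the highest mutant library. The call in palbociclib was lost without control replicate 1 or 2 (-0.89 and -0.83) or mutant replicate 3 or 4 (-0.90 and -0.88) of the palbociclib groups. GSTZ1 also fell under palbociclib in controls (log2 fold change -0.75, SE 0.21, edgeR adjusted p = 0.0276), a call lost without replicate 3 or 4 of the controls in DMSO (-0.76 and -0.64) and without replicate 4 or 5 of the controls in palbociclib (-0.75 and -0.58).

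The symbol GSTM3 is shared by 3 gene IDs, and the end of the gene ID tells them apart. GSTM3_042533 (ENSDARG00000042533), a mu class gene, was at 22.3, 22.1, 22.5, 29.0 and 20.8 CPM in mutants in DMSO and at 35.8, 36.2, 52.5 and 51.4 CPM in controls in DMSO (log2 fold change -0.91, SE 0.17, edgeR adjusted p = 7.72e-05). In palbociclib it was at 33.3, 24.8, 28.8, 33.1 and 26.3 CPM in mutants and at 24.7, 22.1, 29.2 and 18.6 CPM in controls (log2 fold change 0.30, SE 0.17, adjusted p = 0.631). The mutant libraries in DMSO lay below all controls in DMSO, and the palbociclib ranges overlapped. The interaction was 1.21 (SE 0.24, edgeR adjusted p = 0.00333), or 0.93 and not called without control replicates 3 and 4 in DMSO. The other 2 GSTM3 IDs, with group means under 10 CPM, were not called.

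Among the control libraries in DMSO, gstp1.2 and gstt1a spread widely. gstp1.2, of the pi class that conjugates many electrophiles, was at 223, 184, 181, 191 and 193 CPM in mutants in DMSO and at 257, 178, 458 and 516 CPM in controls in DMSO, with 1 control library below all mutants. Its log2 fold change of -0.86 (SE 0.23, edgeR adjusted p = 0.0194) was not called without control replicate 3 (-0.71) or 4 (-0.62) in DMSO, or without both (-0.19). Under palbociclib it stood at 228, 194, 242, 197 and 209 CPM in mutants and at 268, 331, 231 and 279.8 CPM in controls (log2 fold change -0.37, adjusted p = 0.712). gstt1a, of the theta class, was at 105, 73.9, 58.5, 68.0 and 56.2 CPM in mutants in DMSO and at 148, 81.1, 304 and 313 CPM in controls in DMSO, and it was at 109, 83.6, 80.9, 70.3 and 99.6 CPM and 119, 136, 94.9 and 75.6 CPM in mutants and controls in palbociclib. Control replicate 2 lay within the mutant range in DMSO, and replicates 3 and 4 far above it. The DMSO log2 fold change was -1.54 (SE 0.34, edgeR adjusted p = 0.00475), or -0.68 and not called without replicates 3 and 4. gstt2 and gstt1b fell by 1.63 and 1.52 in mutants in DMSO and gstk1, of the kappa class of mitochondria and peroxisomes, by 0.99, and of these gstt1b was not called without replicates 3 and 4 (-0.505). gstk1 was also lower in palbociclib than in DMSO in controls (log2 fold change -0.72, edgeR adjusted p = 0.0413), a difference of -0.36 and not called without those 2 libraries.

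Of 14 tested SULT genes, 5 fell in mutant livers in DMSO and 9 were not called, with a median log2 fold change of -0.43. The 5 belong to the SULT1 family (3 of 6 tested), whose mammalian members sulfate phenols, and to the SULT3 family (2 of 3). None of the 3 SULT2 genes, whose mammalian counterparts sulfate hydroxysteroids, nor SULT4A1, a gene of the nervous system in mammals, was called. sult6b1 had a share of the SULT sum of a library that averaged 32.4% to 42.8% by group. It stood at 147, 146, 166, 141 and 138 CPM in mutants in palbociclib, 104, 138, 119, 114 and 139 CPM in mutants in DMSO, 152, 146, 128 and 141 CPM in controls in palbociclib and 136, 139.9, 163 and 132 CPM in controls in DMSO. All 4 groups overlapped, and the genotype log2 fold changes were -0.22 in DMSO (SE 0.10, adjusted p = 0.15) and 0.06 in palbociclib (SE 0.10, adjusted p = 0.948). sult2st2 was at 52.7, 58.5, 40.9, 38.2 and 58.5 CPM in mutants in DMSO and at 52.0, 40.8, 86.3 and 87.5 CPM in controls in DMSO (log2 fold change -0.42, SE 0.18, adjusted p = 0.102). Control replicates 1 and 2 lay within the mutant range, and replicates 3 and 4 above it. sult2st2 was called lower without control replicate 1 (-0.53) or 2 (-0.60), and it was not called without replicates 3 and 4. It was at 39.7, 47.4, 47.6, 43.8 and 40.8 CPM in mutants and 44.0, 58.1, 53.4 and 46.5 CPM in controls in palbociclib.

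sult1st6 (ENSDARG00000006811) was at 25.1, 24.7, 23.0, 23.1 and 21.2 CPM in mutants in DMSO and at 63.9, 38.9, 71.4 and 83.6 CPM in controls in DMSO (log2 fold change -1.46, SE 0.18, edgeR adjusted p = 7.06e-08). Libraries treated with palbociclib stood at 21.4, 19.2, 27.3, 27.2 and 39.2 CPM in mutants and at 26, 31.6, 30.4 and 28.9 CPM in controls (log2 fold change -0.12, SE 0.18, adjusted p = 0.935). The genotypes were thus apart in DMSO and overlapped in palbociclib. The interaction was 1.33 (SE 0.26, edgeR adjusted p = 0.00237), and palbociclib against DMSO in controls gave -1.14 (SE 0.19, edgeR adjusted p = 0.000237). Without control replicates 3 and 4 in DMSO these were 1.02 and -0.82, and neither was called.

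sult3st2 (ENSDARG00000093619) was at 11.6, 10.47, 9.74, 10.4 and 10.4 CPM in mutants in DMSO, within a narrow range, and at 28.6, 15.5, 31.6 and 56.9 CPM in controls in DMSO (log2 fold change -1.65, SE 0.25, edgeR adjusted p = 4.46e-06). With palbociclib its level lay at 18.2, 17.6, 16.2, 10.3 and 20.5 CPM in mutants and at 21.3, 15.8, 14.7 and 14.6 CPM in controls, where the genotype difference was 0.00 on the log2 scale (SE 0.25, adjusted p = 1). Control replicate 4 in DMSO was the highest and replicate 2 the lowest of its group. The interaction was 1.65 (SE 0.35, edgeR adjusted p = 0.00672), or 1.08 and not called without control replicates 3 and 4 in DMSO. Palbociclib against DMSO in controls gave -0.99 (SE 0.25, edgeR adjusted p = 0.0156), which was -0.60 and not called without control replicate 4 in DMSO, and -0.93 and not called without replicate 4 or 5 of the controls in palbociclib. sult1st1, sult1st3 and sult3st3 fell by 0.74, 1.496 and 1.198 in mutants in DMSO, and without control replicates 3 and 4 in DMSO none of the 3 was called (-0.64, -0.87 and -1.185). With scaling to hepatocyte markers sult1st1 was called higher instead (0.62, edgeR adjusted p = 0.0435). With muscle share as a covariate, sult1st6 was the only SULT gene called lower in mutants in DMSO (-0.88).

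**Figure D3:**
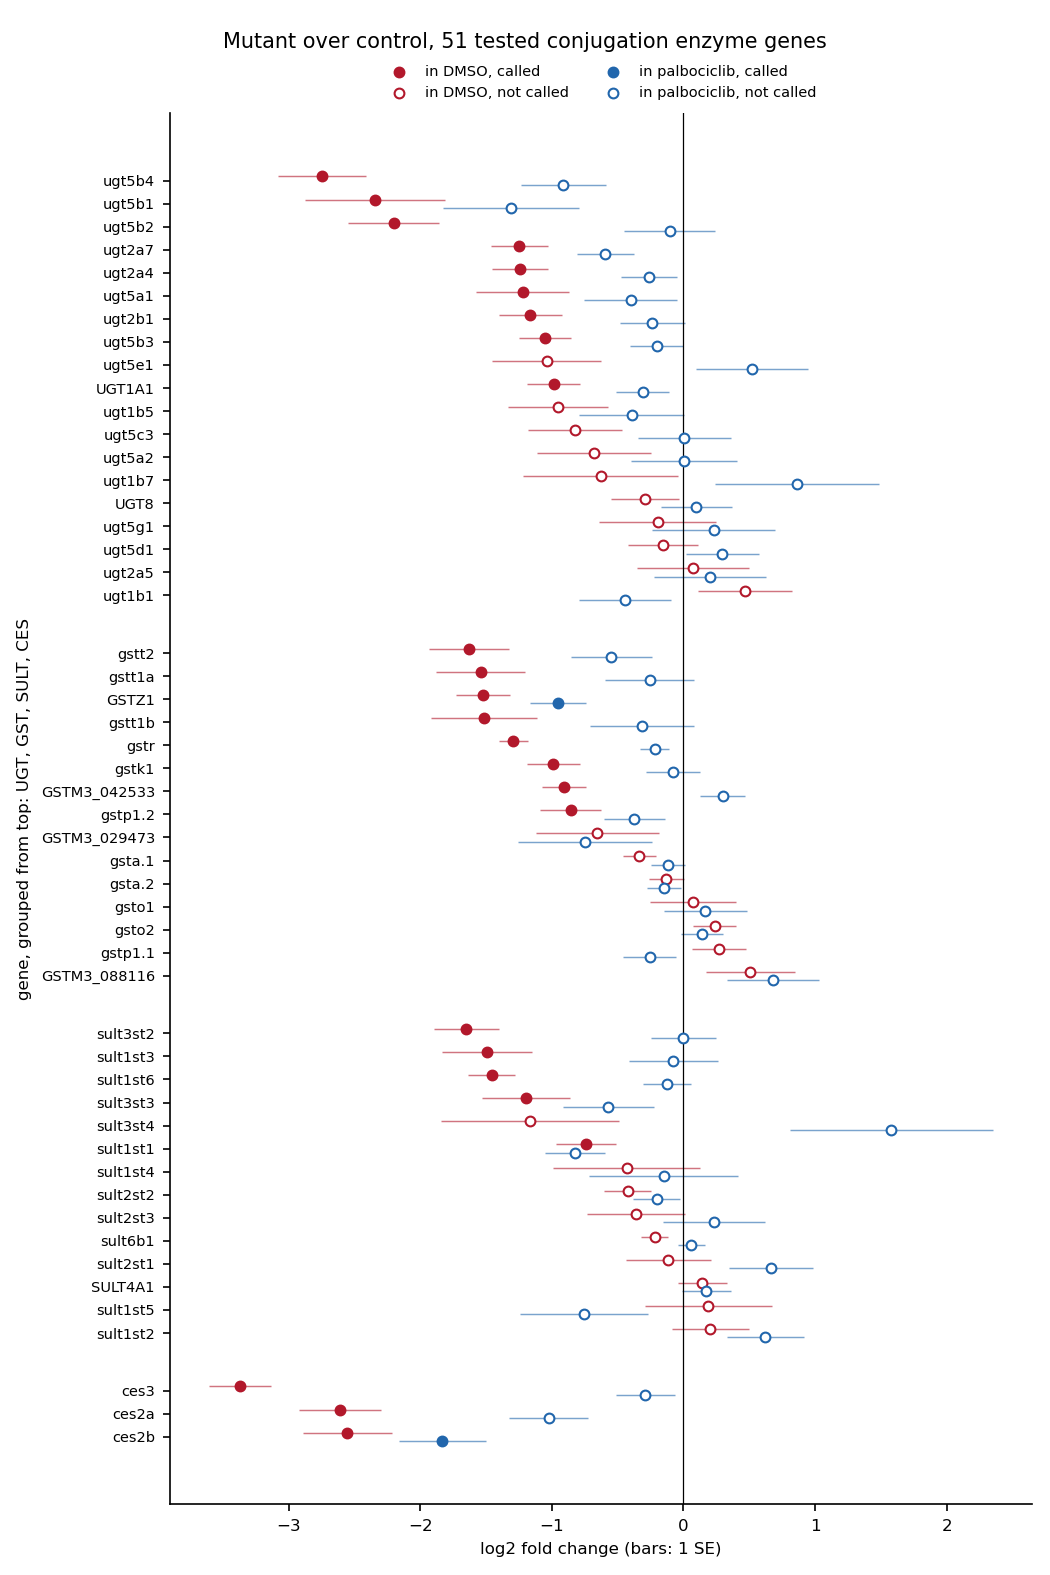
Log2 fold change of mutant over control livers for the 51 tested genes (rows, grouped as UGT, GST, SULT and CES and ordered by the DMSO value), in DMSO (red) and in palbociclib (blue); bars are 1 SE and filled points were called. In DMSO 25 genes are filled and all lie left of 0, and in palbociclib GSTZ1 and ces2b are filled.

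In palbociclib the genotype difference was called for 2 members, and the median log2 fold change over the 51 was -0.15. The 3 CES genes lay at -1.83 to -0.29, the UGT genes at -1.31 to 0.86, the GST genes at -0.95 to 0.68 and the SULT genes at -0.82 to 1.58. For 5 members, 9.8% of the 51 against 3.33% of all tested genes, the mutant and control ranges in palbociclib did not overlap. They were the 2 called genes and 3 that missed the threshold: gstr and ugt5b4 were lower in mutants, and sult1st2 was higher, at 7.30, 10.3, 8.83, 9.62 and 6.94 CPM in mutants and 5.37, 6.32, 5.04 and 5.67 CPM in controls (log2 fold change 0.62, SE 0.29, adjusted p = 0.476). The hepatocyte marker shares were 3.56% ± 0.723 in mutants and 3.41% ± 0.892 in controls in palbociclib, and the muscle shares 5.81% ± 0.440 and 5.29% ± 0.952. The group means of this comparison come from other libraries than those in DMSO, and its tests share the estimate of spread of the 1 fit over 18 libraries. With control replicates 3 and 4 in DMSO left out, 4 members were called, ugt2a7 (-0.61) and gstp1.2 (-0.39) besides GSTZ1 and ces2b, against 1.55% of all genes. DESeq2 called 4 members lower, adding ces2a and sult1st1, against 170 genes lower and 166 higher of all tested. Leaving out 1 library gave 1 to 4 calls, with 4 reached without control replicate 5 in palbociclib, and 96 to 318 calls over all genes.

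Within mutant livers no member was called between palbociclib and DMSO. The median log2 fold change over the 51 members was 0.20, and the CES genes lay at 0.61 to 1.05. For 4 genes, ces3, ces2b, gstr and ugt2a7, every mutant library in palbociclib lay above every mutant library in DMSO, as for 0.751% of all tested genes, and none of the 4 was called. ugt2a7 was at 64.5, 59.9, 59.5, 59.4 and 61.0 CPM in palbociclib and at 55.0, 55.6, 46.8, 43.9 and 42.0 CPM in DMSO (log2 fold change 0.32, SE 0.21, adjusted p = 0.726). The ces3 difference was just short of the threshold and was called by DESeq2 (1.06). It was also called without control replicate 2 in DMSO or replicate 2 or 5 in palbociclib, libraries that are in neither group of this comparison. They enter it through the filter, the scaling, the estimate of spread and the adjustment of p-values, which each fit redid. The hepatocyte marker share was 3.56% ± 0.723 in palbociclib and 2.57% ± 0.455 in DMSO in these mutants. With muscle share as a covariate, 7 members were called higher, ces3, gstr, sult1st3, sult3st2, ugt2a4, ugt2a7 and ugt5b4, against 207 genes higher and 160 lower of all tested.

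Within control livers palbociclib went with lower levels of 10 members: ces3, gstr, gstk1, GSTZ1, GSTM3_042533, sult1st6, sult3st2, ugt5b2, ugt5b3 and ugt2b1. For 6 of them, 11.8% of the 51 members against 5.55% of all tested genes, every palbociclib library lay below every DMSO library. The median over the 51 members was -0.61, beside -0.025 over all tested genes. This median depended on the setting: it was -0.31 with library size alone, -0.59 by DESeq2 and -0.04 with muscle share as a covariate. With hepatocyte scaling it was 0.27. Without control replicates 3 and 4 in DMSO the members' median was -0.11, and 14 members turned sign, none of them called in either fit. Of the 23 hepatocyte markers, 6 were called lower and 0 higher, with a median of -0.78. GSTM3_042533 changed by -0.88 (SE 0.18, edgeR adjusted p = 0.00208), ugt5b2 by -1.22 (SE 0.34, edgeR adjusted p = 0.0296) and ugt5b3 by -0.70 (SE 0.21, edgeR adjusted p = 0.0348). In these controls the muscle share was 5.29% ± 0.952 in palbociclib and 3.59% ± 0.919 in DMSO, and the hepatocyte share 3.41% ± 0.892 in palbociclib and 4.95% ± 0.509 in DMSO. The count of calls changed with the setting: 1 member, ces3, was called with muscle share as a covariate, 1, again ces3, without control replicates 3 and 4 in DMSO, and 1 lower and 11 higher with scaling to hepatocyte markers. Of all tested genes, 17 were called lower and 33 higher with the covariate, and 42 and 4 without those 2 libraries. With hepatocyte scaling 47 of all tested genes were called lower and 7304 higher. Scaled to library size alone, 5 were called lower and 1 higher, against 393 and 1079 of all tested genes. DESeq2 called 16 lower and 0 higher, against 947 and 351 of all tested genes. Leaving out 1 library gave 19 calls without control replicate 2 in DMSO, 5 and 4 without replicates 3 and 4 of that group, and 4 each without replicates 4 and 5 of the controls in palbociclib. Over all genes such fits gave 272 to 2019 calls, against 973 with all 18 libraries.

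**Figure D4:**
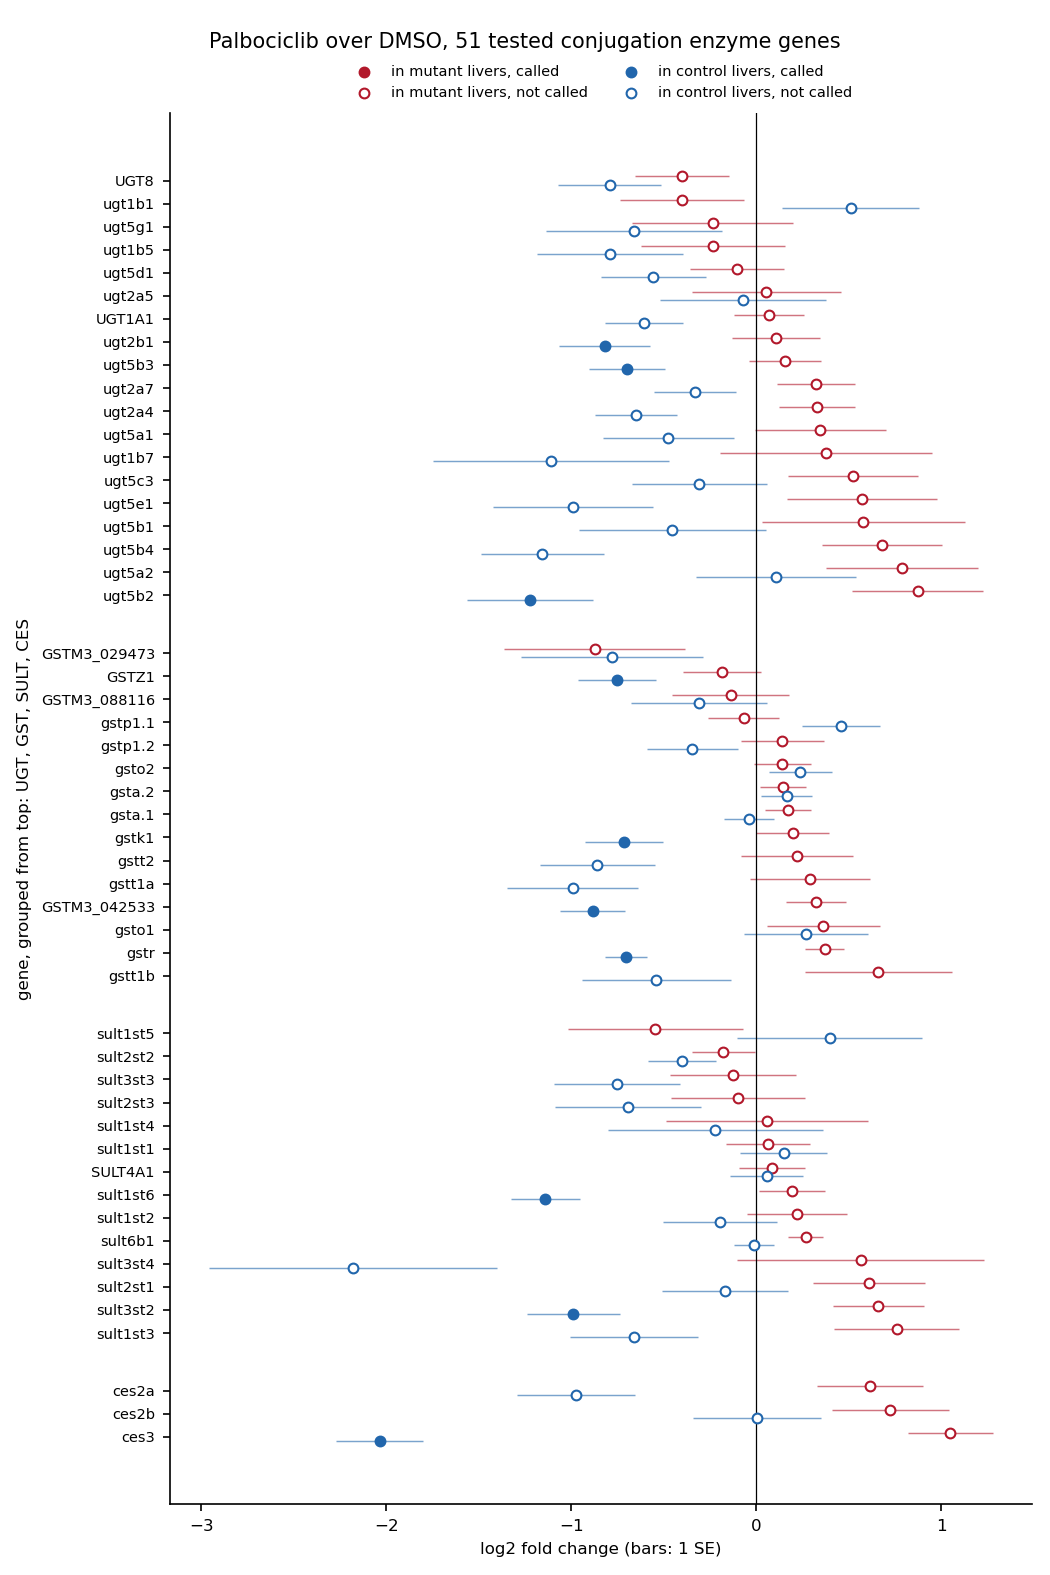
Log2 fold change of palbociclib over DMSO for the 51 tested genes (rows, grouped as UGT, GST, SULT and CES and ordered by the value in mutants), in mutant livers (red) and control livers (blue); bars are 1 SE and filled points were called. No gene is filled in mutants, and the 10 filled genes in controls all lie left of 0, with ces3 at -2.03.

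The interaction was called for ces3, gstr, GSTM3_042533, sult1st6, sult3st2 and ugt5b2, whose mutant effect was -3.37 to -0.91 in DMSO and -0.29 to 0.30 in palbociclib. In control livers their palbociclib effect was -2.03 to -0.70, and in mutant livers it was 0.19 to 1.05 and not called. The median interaction was 0.68 over the 51 members and -0.003 over all genes. Of the 23 hepatocyte markers, 6 were called higher and 0 lower, with a median of 1.42. Without control replicates 3 and 4 in DMSO, ces3 and gstr were called, against 0.397% of all genes, and the members' median was 0.37. Without control replicate 2 in DMSO, 14 were called, all higher. Leaving out 1 library in turn gave 168 to 842 calls over all genes, against 340 with all 18 libraries. With scaling to hepatocyte markers ces3 was called higher and 12 members lower, with the median of all genes at -1.34. Of all tested genes, 13 were called higher and 10547 lower with that scaling.

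**Figure D5:**
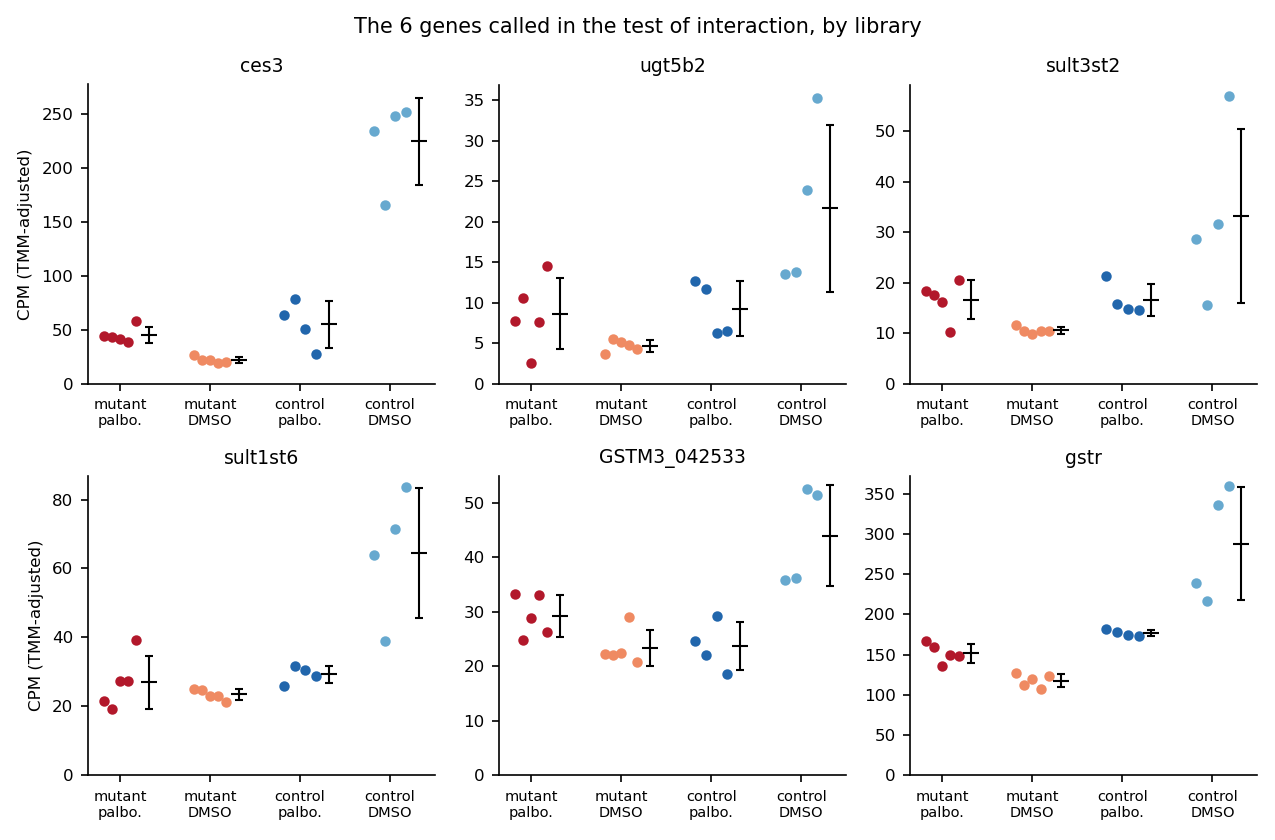
TMM-adjusted CPM of the 6 genes called in the test of interaction (vertical axes, starting at 0), one point per library, in mutants in palbociclib, mutants in DMSO, controls in palbociclib and controls in DMSO, with mean and SD. Controls in DMSO are the highest group for each gene, and the other 3 groups lie closer together.

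The partners of conjugation were read from lists of supply enzymes, carriers and regulators. The lists were chosen with earlier results of these data known, so their counts beside all genes are a description and not a test. They were not counted with the muscle covariate or with hepatocyte scaling. That scaling moved the median of all genes to 1.38 between mutant and control in DMSO, so the directions given hold for TMM scaling. For UDP-glucuronic acid supply, 5 of 12 tested genes fell and 2 rose in mutants in DMSO (median log2 fold change -0.53), against 10.4% of all tested genes called lower and 6.72% called higher. UGP2_005578, which makes UDP-glucose, averaged 98.4 ± 8.91 CPM in mutants in DMSO and 492 ± 105 CPM in controls in DMSO (log2 fold change -2.32, SE 0.22, edgeR adjusted p = 2.28e-06), and pgm1, which supplies glucose 1-phosphate, averaged 216 ± 40.2 and 769 ± 244 CPM (log2 fold change -1.83, SE 0.23, edgeR adjusted p = 3.78e-05). The 2 that rose were the hexokinases HK1 (0.52) and HK2 (0.73). For PAPS supply and sulfate handling, 4 of 11 fell (median -0.32), among them SUOX, the sulfite oxidase (log2 fold change -1.39, SE 0.22, edgeR adjusted p = 8.92e-06), and the sulfate carrier SLC26A2 (log2 fold change -1.08, SE 0.18, edgeR adjusted p = 2.6e-05). For glutathione supply and use, 8 of 25 fell and 1 rose (median -0.38). The 8 included CBS (log2 fold change -1.44, SE 0.18, edgeR adjusted p = 3.82e-06) and AHCY (log2 fold change -1.28, SE 0.16, edgeR adjusted p = 4.08e-05), which act on the route from methionine to cysteine, and the 1 that rose, gpx1b (1.502), is a glutathione peroxidase.

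Of 27 tested genes for other conjugating or hydrolysing enzymes, 18 fell and 1 rose in mutants in DMSO (median -0.94), against 10.4% of all tested genes called lower and 6.72% called higher. EPHX2, a soluble epoxide hydrolase, averaged 60.2 ± 7.20 CPM in mutants in DMSO and 141 ± 30.9 CPM in controls in DMSO (log2 fold change -1.23, SE 0.14, edgeR adjusted p = 1.15e-08). NQO1, a quinone reductase, was called lower in mutants in palbociclib as well, with 40.9 ± 4.73 CPM in mutants and 154 ± 54.4 CPM in controls (log2 fold change -1.91, SE 0.20, edgeR adjusted p = 5.81e-05). The 1 gene that rose was ALDH1A2 (0.59), which makes retinoic acid. Of 23 carriers, 4 fell and 2 rose (median 0.02), and of 32 regulators, 14 fell and 2 rose (median -0.47). The carriers that fell were abcg2a, an efflux pump (log2 fold change -1.21, SE 0.13, edgeR adjusted p = 6.32e-08), slco1d1, an organic anion carrier (log2 fold change -2.33, SE 0.26, edgeR adjusted p = 1.25e-05), ABCB11, the bile salt export pump (-2.16), and slc47a2.1, of a family that exports organic cations (-3.31), and those that rose were ABCC5 (0.28) and abcc6a (2.02). Among regulators, RXRA_057737, a partner of many nuclear receptors, averaged 30.4 ± 4.16 CPM in mutants in DMSO and 61.7 ± 11.1 CPM in controls in DMSO (log2 fold change -1.02, SE 0.17, edgeR adjusted p = 1.24e-05). NR1I2 fell as well (-1.697), and it was still called without control replicates 3 and 4 in DMSO (-1.345). It was also called lower in palbociclib than in DMSO in controls (-1.037), but not without those 2 libraries (-0.655). The 2 regulators that rose were ARNT2 (0.57) and CEBPA (0.46). The counts without control replicates 3 and 4 in DMSO were 3 lower of 12 for UDP-glucuronic acid supply, 3 lower of 11 for PAPS, 4 lower and 1 higher of 25 for glutathione, 9 lower of 27 for the other enzymes, 4 lower and 1 higher of 23 for carriers and 7 lower and 1 higher of 32 for regulators. Of all 17880 genes tested in that fit, 957 were called lower and 474 higher. HK1, HK2, ALDH1A2, ABCC5 and ARNT2 were then no longer called.

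In palbociclib 0 of 12, 0 of 11 and 0 of 25 supply genes for UDP-glucuronic acid, PAPS and glutathione were called by edgeR between mutants and controls, with medians of -0.27, -0.18 and -0.08. Of the rest, 1 of 27 other enzymes (NQO1), 2 of 23 carriers (abcg2a and slc47a2.1) and 2 of 32 regulators (both VDR genes, for the vitamin D receptor) were lower, against 0.416% of all tested genes called lower. Over the 130 listed genes these were 5 calls, where 33 had an unadjusted p under 0.05 and DESeq2 called 11. Of all 17048 tested genes, 1656 had such a p, and DESeq2 called 166 higher and 170 lower. Palbociclib against DMSO in mutants, gpx1b was the single listed gene called (-1.22), against 0.54% of all genes. Palbociclib against DMSO in controls, 2 of 12, 2 of 11, 3 of 25, 4 of 27, 3 of 23 and 6 of 32 genes fell in the 6 lists and 0 rose, against 4.33% of all tested genes called lower. In the fit without control replicates 3 and 4 in DMSO, edgeR called 0 of the 130 listed genes in this comparison and 0 in the interaction (18 and 20 had an unadjusted p under 0.05), with 0.257% and 0.397% of all genes called. Of all 17880 genes tested in that fit, 1557 and 1471 had such a p. DESeq2, on all libraries, called 35 listed genes in this comparison and 33 in the interaction. Of all tested genes, it called 947 lower and 351 higher in this comparison, and 89 lower and 526 higher in the interaction. NR5A2, a nuclear receptor of bile acid and cholesterol genes, averaged 33.6 ± 6.85 CPM in controls in palbociclib and 80.2 ± 32.5 CPM in controls in DMSO (log2 fold change -1.26, SE 0.23, edgeR adjusted p = 0.00231), and aldh3a2b, a fatty aldehyde dehydrogenase, averaged 56.6 ± 13.4 and 105 ± 26.6 CPM (log2 fold change -0.89, SE 0.19, edgeR adjusted p = 0.00811). GLS2_069095, a glutaminase, averaged 45.6 ± 6.58 CPM in controls in palbociclib and 72.3 ± 23.8 CPM in controls in DMSO (log2 fold change -0.67, SE 0.18, edgeR adjusted p = 0.0239). In the interaction 7 listed genes were called, all higher, against 1.74% of all genes: UGP2_005578 (1.68), EPHX2 (1.03), aldh3a2b (1.07), GUSB (1.04), STS (2.00), slco1d1 (1.65) and NR5A2 (1.23). GUSB and STS remove glucuronic acid and sulfate from conjugates.

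The 12 chosen genes that did not pass the filter had 13 to 105 counts over the 18 libraries. They were gstk2, sult1st9, sult3st1, sult3st5, sult5a1, ugt1b2, ugt1b3, ugt1b4, ugt2a6, ugt5b5, ugt5c1 and ugt5f1. Fitted without the filter, 2 of the 12 were called lower in mutants in DMSO and 0 in the other comparisons. In the filtered fit, 17.1% of all tested genes were called between mutants and controls in DMSO, 10.4% lower and 6.72% higher. The 2 calls are therefore not read as a result about the 12. In the other comparisons 1 to 3 of the 12 had an unadjusted p under 0.05, as had 1502 to 3494 of all 17048 genes in the filtered fit. ugt1b4 was at 0.282, 0.291, 0.271, 1.24 and 0 CPM in mutants in DMSO and at 2.34, 1.46, 2.24 and 4.93 CPM in controls in DMSO, without overlap (log2 fold change -2.53, edgeR adjusted p = 0.0126), and ugt5b5 was the other (-2.18, edgeR adjusted p = 0.0348). sult1st9, with 1 and 2 counts in all in mutants in palbociclib and in DMSO and 19 and 16 in controls in palbociclib and in DMSO, was not called (adjusted p = 0.174 in palbociclib and 0.109 in DMSO).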

How the data were processed

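RNA-seq was deposited as whole-number counts per gene, 1 file for each of 18 libraries, made by the authors. Per the submitters' processing notes, FastQC 0.11.5 and Trimmomatic 0.36 were used on the reads. The aligner, counter, strand setting, build and annotation were not given in the sources used here. Reads shared by overlapping genes or close copies could not be told apart. Symbols came from a table of gene names. Genes with low counts were removed with filterByExpr by group, which kept 17048 genes and 99.6% of the counts and removed 15057. All 18 libraries, with 2467926 to 5199301 counts each, entered 1 edgeR 4.0.16 fit in R 4.3.3 (TMM factors 0.762 to 1.16, robust quasi-likelihood, a mean per group, common biological coefficient of variation 0.218), and the 5 comparisons were contrasts of it. Genes were called at a Benjamini-Hochberg adjusted p of 0.05. The SE is the log2 fold change divided by the root of the F statistic. CPM values used TMM-adjusted library sizes. The procedure was also run on simulated data with known changes. The share of changes it recovered is not given here, so that run says nothing here on how often small changes were missed.

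Members given in full were the 6 with the smallest adjusted p among those called in each comparison, all called in the interaction, and the 3 of each superfamily with the highest mean CPM. Partner genes were the 2 called genes with the lowest adjusted p per list in the comparisons of genotype in DMSO and of treatment in controls; other partner genes with values, and sult1st2, sult1st9, ugt1b4, ugt2a7, ugt2b1 and ugt5b5, were named after their values were seen. The members and lists were chosen with earlier results of these data known. Alternatives were DESeq2 1.42.0, library-size or hepatocyte-marker scaling, the muscle share as a covariate, no filter, only the groups compared, a replicate block and leaving out libraries. Nothing in the labels ties equal replicate numbers together. No sequences were used here.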

Additional observations from a re-analysis of the deposited data

Results flagged for a closer look

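In 3 of 80 groups of libraries checked, 1 library stood apart from the others of its group, where chance gives about 1 in 20. GSTM3_042533 reached 29.02 CPM in mutant replicate 4 in DMSO, above the other 4 mutant libraries in DMSO. gstp1.2 reached 222.7 CPM in mutant replicate 1 in DMSO, also above the other 4. The summed GST level reached 912.2 CPM in mutant replicate 1 in palbociclib, the highest of its group.

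For 6 genes the mutant effect in palbociclib differed from that in DMSO by edgeR's interaction term. The differences of the log2 fold changes were 3.083 for ces3, 2.097 for ugt5b2, 1.65 for sult3st2, 1.333 for sult1st6, 1.205 for GSTM3_042533 and 1.073 for gstr.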

How the results depend on the processing

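Counts of called members, with control replicates 3 and 4 in DMSO left out as a choice made after seeing the data, depended on the setting as follows. Between mutant and control in DMSO, 25 were called, 8 with the muscle covariate, 15 without those 2 libraries and 21 to 29 with 1 library left out. Hepatocyte scaling called 6 lower and 19 higher there. In palbociclib 2 were called, 4 with the muscle covariate, 1 with hepatocyte scaling, 4 by DESeq2, 4 without the 2 libraries and 1 to 4 with 1 left out. The covariate called 280 of all tested genes higher and 165 lower there, and hepatocyte scaling 120 and 47. Palbociclib against DMSO in mutants, 0 were called, 1 with library-size scaling, 1 without the filter, 7 with the muscle covariate, 3 with only the compared groups, 1 by DESeq2, 1 without the 2 libraries and 0 to 2 with 1 left out. Library-size scaling called 36 of all tested genes higher and 105 lower in mutants, and the fit without the 2 libraries 18 and 92. Counts without the filter or with only the compared groups are not set beside those of all genes. In controls 10 were called, 6 with library-size scaling, 1 with the muscle covariate, 4 with only the compared groups, 16 by DESeq2, 1 without the 2 libraries and 4 to 19 with 1 left out. Hepatocyte scaling called 1 lower and 11 higher in controls. In the interaction 6 were called, 13 with hepatocyte scaling, 10 by DESeq2, 2 without the 2 libraries and 5 to 14 with 1 left out. All 6 were called higher, while of the 13 only 1 was higher and 12 were lower. The interaction could not be fitted on 2 groups. With 1 library left out, the calls over all genes numbered 2094 to 3456, 96 to 318, 39 to 116, 272 to 2019 and 168 to 842 in these 5 comparisons. Libraries of equal replicate number showed little likeness: the correlation of deviations ran from -0.194 to 0.057 over 24 pairs. Low correlation does not show that they were unpaired, since libraries of a group also differed in muscle and hepatocyte share. With the replicate block 0 members were called in palbociclib, against 76 of all tested genes higher and 35 lower. Between treatments in controls the block left 4 members called, all lower, against 20 of all tested genes higher and 244 lower. Only 1 of 18 libraries correlated best with its own number. Scaled to hepatocyte markers, 29 of 51 members turned sign between mutant and control in DMSO, 30 between treatments in controls and 36 in the interaction. Of these turns, 21, 7 and 9 were of members called in that comparison with TMM or hepatocyte scaling, and only such turns are named next. Of the members given in full and called with either scaling, signs turned between mutant and control in DMSO for gstr (0.072), GSTM3_042533 (0.455), UGT1A1 (0.39), ugt2a4 (0.12), gstp1.2 (0.552), sult6b1 (1.105) and sult2st2 (0.938). Outside the members given in full, sult1st1 turned as well (0.617, called higher). Of the members given in full and called with either scaling, signs turned between treatments in controls for gstr (0.22), GSTZ1 (0.047) and sult6b1 (0.858). In the interaction they turned for gstr (-0.315), sult1st6 (-0.091), GSTM3_042533 (-0.124), gstp1.2 (-0.931), sult6b1 (-1.067) and sult2st2 (-1.155). That scaling moved the median of all genes as well, and the cause of the other changes was not tested. Without TMM adjustment 4 of 16 superfamily sums moved by more than 1 SD. The 12 members with 13 to 105 counts did not pass the filter, and without it ugt1b4 (-2.53) and ugt5b5 (-2.18) were called lower in mutants in DMSO. In the filtered fit 10.4% of all tested genes were called lower there.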
